A study of Caenorhabditis elegans with 6 samples.

Results

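The transcriptome of ageing wild-type Caenorhabditis elegans was described from the 3 of 6 RNA-seq libraries whose perturbation label is L4440. L4440 is the RNAi feeding vector without an insert, given as the empty-vector control. The labels put these libraries at 5 days of age and describe whole hermaphrodites of strain N2, genotype wildtype, tissue all. The other 3 libraries carry the label T25B9.1 for the RNAi target, with the same strain, genotype, sex and age. The source field of all 6 names T25B9.1 RNAi after the L4 stage, the last larval stage, and the groups follow the perturbation label. T25B9.1 itself gave 2.59, 3.66 and 3.29 CPM (CPM, counts scaled to library size with TMM factors) in the libraries labelled L4440, against 6.73, 12.6 and 12.2 CPM in those labelled T25B9.1. The targeted gene was therefore higher in the libraries labelled for its knockdown, so the groups are named by their labels throughout. An exchange of labels between the groups cannot be told apart from these counts, and every value given for L4440 rests on the label. Reads from the double-stranded RNA itself cannot be told apart from the worm's transcript in these counts.

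A hermaphrodite makes its sperm first, as a larva, and afterwards only oocytes. In the adult, the intestine makes vitellogenins, which are yolk proteins secreted into the body cavity and taken up by oocytes through the receptor RME-2. The germline loads oocytes with messenger RNAs for the embryo, for the chitin and proteoglycan eggshell, and for the ribosomes that make them. Counts therefore come from a mixture of somatic tissues, gonad and any embryos held in the uterus, and in such bulk samples a lower number of cells of a type and less RNA per cell cannot be told apart.

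The libraries labelled L4440 held 35642482, 25480225 and 38621940 counts, numbered replicates 1, 2 and 3 in accession order since the labels give no number. Those labelled T25B9.1 were numbered in the same way, and the labels do not say whether libraries of equal number belong together. Between 12778 and 13752 genes had at least 10 counts in a library. The pairwise Pearson correlation of log2 CPM across genes ran from 0.9927 to 0.9946. Chi-square per degree of freedom between pairs, which would be near 1 for sampling noise, was 19.8 to 36, so the libraries differed by more than sampling noise. Each library was counted as a sample of its own, as the labels list it, which chi-square cannot test. Nothing in the labels tells of separate cultures, so every SD below covers only how these samples differed, technical differences included. Shares of counts had 95% Wilson half-widths of at most 0.0193 percentage points, and such intervals cover counting error only. Values in threes are given for replicates 1, 2 and 3, and ± is the SD over n = 3 libraries.

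Counts were spread over many genes. Those holding 50% of a library's counts numbered 768, 772 and 839, and those holding 90% numbered 4096, 4125 and 4240. The 10 most counted genes supplied 7.58 ± 1.01% of counts, and the 100 most counted 20.5 ± 0.849%. Protein-coding genes supplied 99.3 ± 0.152%. Every gene was put into 1 of 62 classes by its biotype, chromosome and symbol. Named genes of no listed class supplied 45.6 ± 0.396%, and genes known only by a sequence name 17.5 ± 0.581%.

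Among the listed classes, the ribosome came first. Cytosolic ribosomal protein genes supplied 6.53, 7.99 and 6.98% of counts. Replicate 2 was the highest of the libraries, and all 3 exceeded the share of every other listed class in the same library. Counts favour long genes, so levels of different genes were compared as TPM, counts per exon length scaled to 1 total for all libraries. On that scale ribosomal protein genes supplied 16.9 ± 1.19%. They were 63 of the 100 genes of highest mean TPM, and 82 of the 83 genes of the class had a mean of at least 100 counts. The first by TPM were rpl-41.2 with 4851 ± 469 TPM, rps-25 with 4674 ± 225 TPM and rps-23 with 3543 ± 354 TPM. None of the 82 differed 1.5-fold between the highest and the lowest library, against 4.51% of all 9118 genes with a mean of at least 100 counts. They shifted together by less than that: 80 of the 82 were highest in replicate 2, which was the highest library for 35.5% of all 9118 genes, and their summed CPM differed 1.21-fold. Replicate 2 was also highest for all 33 proteasome genes and for 64 of 69 respiratory chain and ATP synthase genes. Short genes were often lower in replicate 1. Of 458 genes under 500 bases of exon, 91 were higher there than in replicate 2, and of 1843 genes of 500 to 1000 bases, 459 were. The part of length in the ribosomal shift was not tested.

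Translation factors, which load and move the ribosome, supplied 2.56, 2.91 and 2.4% of counts. The gene of highest mean TPM in these animals belonged to them: eef-1A.1 (WBGene00001168, WBcel235 chromosome III, 6970026 to 6971712, minus strand), which encodes the elongation factor that brings aminoacyl-tRNA to the ribosome. It reached 10695, 11055 and 8823 TPM, above the next gene in every library. eef-2, the translocation factor, had 1768 ± 268 TPM, and eef-1G, another elongation factor subunit, 2363 ± 112 TPM. Chaperone genes recognised by symbol, which left out the small heat shock protein gene sip-1 given further on, supplied 2.26 ± 0.209% of counts and were led by cyn-7, a cyclophilin, with 3259.8 ± 503 TPM, and by the constitutive HSP70 gene hsp-1, with 2024 ± 230.1 TPM. hsp-90 followed with 1692 ± 261 TPM.

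**Figure D1:**
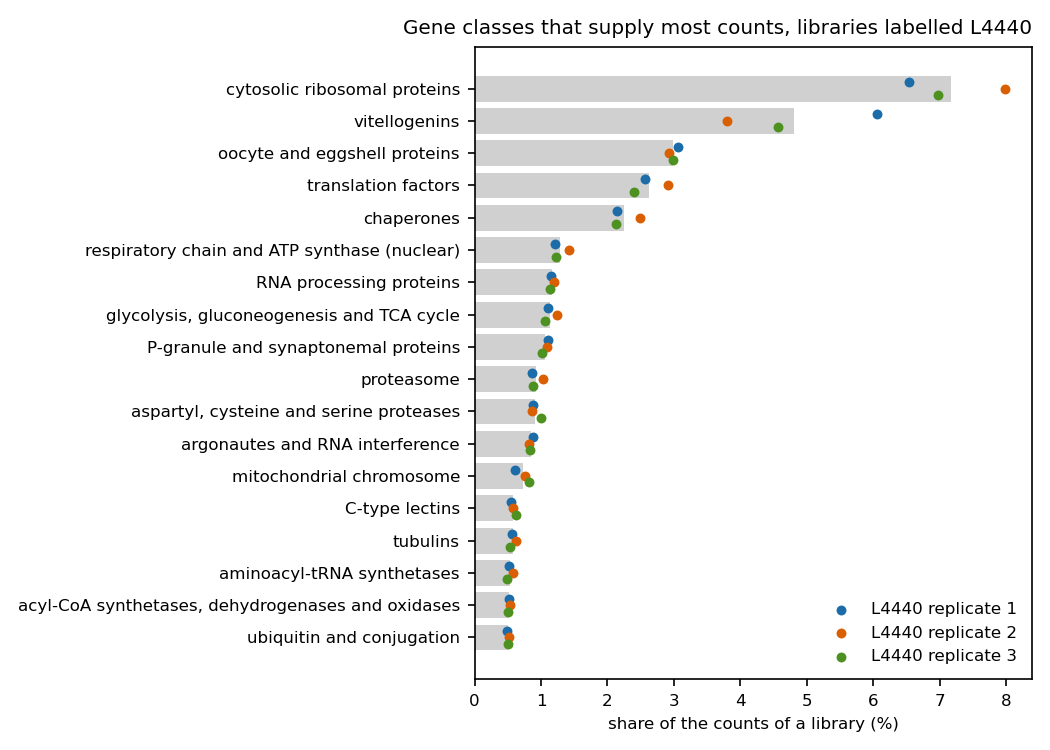
Share of each library's counts, in percent, supplied by the 18 listed gene classes with the highest mean share; grey bars are means over the libraries labelled L4440 and points are the single libraries. Ribosomal proteins and vitellogenins lead, and their order of replicates is opposite at the top: replicate 2 is highest for ribosomal proteins and replicate 1 for vitellogenins.

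Yolk protein genes came second by counts. The 6 vitellogenin genes together supplied 6.06, 3.8 and 4.56% of counts, 4.81 ± 1.15% on average, but 1.31 ± 0.37% of TPM, because their exons span 4870 to 5088 bases. vit-6 (WBGene00006930, chromosome IV, 8261157 to 8266459, plus strand) was the most counted gene of all, with 996780, 435359 and 777673 counts. Replicate 1 held more vit-6 counts than the larger library of replicate 3. Per length, vit-6 had 7820.3, 4430.4 and 5269 TPM and stood at rank 3. The 5 genes on X split into a high and a low set. vit-2 reached 4761, 2714 and 3378 TPM and vit-5 3472, 2142 and 2513 TPM, while vit-4 had 423, 259 and 350.1 TPM, vit-3 had 398, 245 and 369 TPM and vit-1 had 344, 234 and 265 TPM. The lowest vit-5 value was over the highest value of vit-1, vit-3 or vit-4. vit-3, vit-4 and vit-5 are close copies of each other, so the division of reads among them is uncertain.

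The vitellogenins were also uneven between the libraries, all 6 being highest in replicate 1 and 5 of the 6 past 1.5-fold, against 2.11% of all genes past 1.5-fold with replicate 1 highest. Ratios of the highest to the lowest library were 1.65 for vit-6, 1.64 for vit-2, 1.53 for vit-4, 1.52 for vit-5, 1.52 for vit-3 and 1.38 for vit-1. Summed over the class they gave 62119, 38583 and 43872 CPM, a ratio of 1.61. In the libraries labelled T25B9.1, where replicate 2 was highest, the sums were 33679, 51239 and 36034 CPM. Without replicate 1, or without replicate 2, none of the 6 differed 1.5-fold between the libraries left. Yolk level thus varied by a like ratio within each label, 1.61 within L4440 and 1.52 within T25B9.1.

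Oocyte and eggshell genes supplied 3.07, 2.92 and 2.99% of counts, nearly the same share in each library. None of the 38 genes of the class with at least 100 counts differed 1.5-fold, a count near the 4.51% of all genes. cbd-1, which encodes a chitin-binding eggshell protein, was the fifth most counted gene with 143479, 90063 and 134397 counts. Per length, the chondroitin proteoglycan gene cpg-2 had 2542 ± 144 TPM and cpg-1 had 1546 ± 193 TPM. perm-2 and perm-4, needed for the permeability barrier beneath the eggshell, had 2557 ± 203 TPM and 1977 ± 248 TPM. RNA-binding proteins that hold or direct maternal messages followed, with 1882 ± 175 TPM for pos-1, 1392 ± 163 TPM for spn-4, 926 ± 79.1 TPM for mex-5 and 899 ± 64.5 TPM for oma-2. rme-2, the yolk receptor, had 779, 704 and 662 TPM. Receptor and yolk did not keep one ratio between libraries: on CPM, rme-2 differed 1.17-fold and vit-6 1.65-fold.

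A fixed list of 23 oocyte and eggshell markers had a median level of 709.6 ± 51.2 TPM per gene, and all 23 had at least 100 counts. The 27 germline markers had a median of 145 ± 9.99 TPM and all passed the same count. cgh-1, a DEAD-box RNA helicase of germ granules, led them with 1593 ± 132 TPM, followed by car-1, its partner, with 1528 ± 112 TPM and by the translational repressor gld-1 with 814 ± 102 TPM. Argonautes of the small RNA pathways were well detected, wago-1 with 444 ± 24.1 TPM, hrde-1 with 394 ± 53 TPM and prg-1 with 244 ± 21.4 TPM. P-granule and synaptonemal genes supplied 1.07 ± 0.0449% of counts and argonaute and RNAi genes 0.849 ± 0.0288%.

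Most sperm markers had counts near the floor. Of 48 matched sperm markers, 8 had a mean of at least 10 counts and 4 had no count in any library, and the median was 0.213 ± 0.0625 TPM. The 31 msp genes, which encode the major sperm protein and are near-identical copies, had 51, 79 and 75 counts in all, and none had a mean of 10. Most of the matched sperm markers are msp genes, and the handling of reads shared between copies is not given. The msp counts and the median of the list therefore need not give the level of sperm RNA. spe-44, the transcription factor that starts the spermatogenesis programme, was the exception with 18.3 ± 0.444 TPM, 770, 567 and 860 counts. It alone supplied a large part of the 40.2 ± 1.47 TPM summed over the list. ssp-10 followed with 7.88 ± 1.35 TPM, and fer-1, the ferlin gene of sperm, had 162, 55 and 77 counts.

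**Figure D2:**
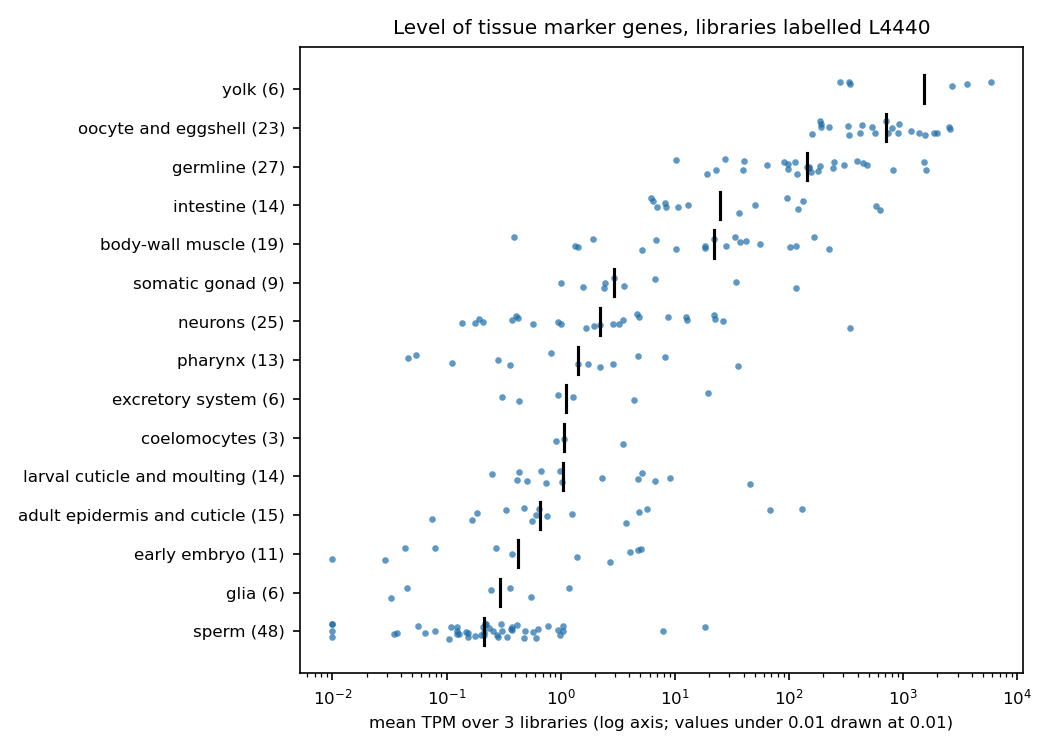
Mean TPM over the libraries labelled L4440, on a log axis, of every matched member of 15 fixed tissue lists (the number of members is in brackets); each point is a gene and the black line is the median of the list. Yolk, oocyte and germline markers lie mostly over 100 TPM, intestine and body-wall muscle markers around a median of 24.8 and 22.1 TPM, and sperm markers mostly under 1 TPM.

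Among the somatic lists, intestine and body-wall muscle had the highest medians after yolk, itself made by the intestine. Such medians depend on which genes a list holds and do not rank the tissues. The 14 intestinal markers had medians of 25.7, 22.4 and 26.3 TPM. asp-1, a gut aspartyl protease, had 629.5 ± 81.3 TPM, the cysteine protease gene cpr-1 had 584 ± 55.6 TPM, and act-5, the actin of the microvilli, had 132 ± 9.1 TPM. The GATA factor gene elt-2, which governs intestinal identity, had 7.02 ± 0.467 TPM. Further products known from the intestine were high in classes outside the list. Such were far-2, a fatty acid and retinol binding protein, with 4039 ± 532 TPM, the saposin-like gene spp-5 with 2826 ± 337 TPM, and the lysozyme gene lys-7 with 1738 ± 315 TPM. asp-6 had 1375 ± 90.4 TPM and fat-2, a fatty acid desaturase, 1307 ± 167 TPM.

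The 19 body-wall muscle markers had medians of 22.7, 20.7 and 22.8 TPM, ranges that overlapped those of the intestinal list. pat-10, troponin C, had 222 ± 10.2 TPM, and lev-11, tropomyosin, had 102 ± 7.33 TPM. The thick filament genes were lower per length and less even. unc-54, the main myosin heavy chain, had 55.1, 26.9 and 30.8 TPM, and unc-15, paramyosin, 56.4, 31.4 and 39.5 TPM. Both were highest in replicate 1, as described with the long genes below.

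In all other tissue lists the mean of the 3 library medians was under 3 TPM. The somatic gonad median was 2.94 ± 0.404 TPM, with the sheath innexin gene inx-8 at 116 ± 8.69 TPM. The 25 neuronal markers had a median of 2.22 ± 0.129 TPM, and snb-1, synaptobrevin, supplied 339 TPM of their summed 474 ± 16.2 TPM. The neuropeptide gene flp-1 was steady, with 5.93, 6.49 and 6.6 CPM. Pharynx markers had a median of 1.42 ± 0.41 TPM, led by the troponin gene tni-4 with 35.8 ± 0.263 TPM. Coelomocyte, excretory and glial lists had medians of 1.08 ± 0.158 TPM, 1.12 ± 0.113 TPM and 0.297 ± 0.029 TPM.

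Most markers of the adult epidermal list were low. The 15 adult epidermal markers had a median of 0.657 ± 0.147 TPM and were led by lin-26, with 129.5 ± 11.6 TPM, and by the adult collagen col-19, with 59.2, 81.5 and 62.1 TPM. lin-26 is also made in the somatic gonad and overlaps lir-1, so its reads are not epidermal alone. Of 175 cuticle collagen genes, 88 had a mean of at least 10 counts and 36 of at least 100, and the class supplied 0.23 ± 0.0207% of counts. The highest collagens were col-181 with 452 ± 27.7 TPM and col-106 with 445 ± 42.7 TPM. Sarcomere genes supplied 0.287 ± 0.00684% of counts. On TPM the shares were 0.306% for collagens and 0.37% for sarcomere genes. The median of the epidermal list therefore does not give the level of the tissue. Moulting markers had a median of 1.04 ± 0.254 TPM, of which the nuclear receptor gene nhr-23 stood apart with 45.5 ± 8.2 TPM.

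Embryonic transcripts were present at low level. The 11 early embryo markers, zygotic genes of the first lineages, summed to 17.7, 22.8 and 15.5 TPM, highest in replicate 2. pes-10 had 4.55, 7.37 and 4.41 CPM and tbx-38 had 2.76, 4.82 and 1.99 CPM, both highest in replicate 2, while pes-1 had 3.65, 3.15 and 3.04 CPM and was highest in replicate 1. hlh-27 had no count in any library.

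Energy metabolism and protein turnover classes had smaller shares. The nuclear respiratory chain and ATP synthase genes supplied 1.29 ± 0.124% of counts, with atp-2 at 1305 ± 157 TPM, and glycolysis, gluconeogenesis and TCA cycle genes 1.14 ± 0.0937%. The mitochondrial chromosome itself supplied 0.612, 0.76 and 0.818%, lowest in replicate 1. ant-1.1, the mitochondrial ADP/ATP translocase, had 2980.2 ± 203 TPM and stood at rank 14. Proteasome genes supplied 0.927 ± 0.0917% and lysosomal and secreted proteases 0.915 ± 0.0683%. By contrast, the 1317 chemoreceptor genes, the largest listed family, had 48 members with a mean of 10 counts and supplied 0.0314%. Its highest entries, odr-8 with 93.1 ± 3.84 TPM and odr-4 with 42.8 ± 2.78 TPM, share the family's naming but act in receptor folding and trafficking, and the first true receptor was str-7 with 9.6 ± 1.65 TPM.

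The 20 genes of highest TPM mixed these roles. Beside the ribosomal, yolk and elongation factor genes were sip-1, a small heat shock protein of oocytes and embryos, with 6007, 6265 and 6072 TPM, and clec-87, a C-type lectin gene, with 3548, 3465 and 3627 TPM. sip-1 held rank 2 by TPM and rank 10 by count. cey-2, a Y-box RNA-binding protein, had 3525 ± 192 TPM, and ndk-1, a nucleoside diphosphate kinase, 2927 ± 259 TPM. C17F4.7, with 2978 ± 192 TPM, and Y37E3.8, with 2813 ± 187 TPM, are known here by sequence name. Of these 20 genes, 7 were also among the 20 most counted, a list that added long and abundant messages such as vit-5, cbd-1, eef-2, hsp-90, pab-1 and tbb-2. The non-coding transcript of highest level was tts-1, with 961 ± 162 TPM.

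The X chromosome had the lowest median level and share of counts of the nuclear chromosomes. Its detected protein-coding genes, those with a mean of at least 10 counts, had median levels of 5.95, 5.46 and 6.1 TPM. Chromosome V was little higher, with 7.27, 7.01 and 7.92 TPM, and II and IV had mean medians of 14.6 and 18.4 TPM. On V 49% of protein-coding genes were detected, the smallest part, against 68.1% on X. Chromosome I stood highest with 39, 36.3 and 37.9 TPM, followed by III with 36, 34 and 34.9 TPM, and each value of either exceeded every X value. In the hermaphrodite germline, X-linked genes are largely silenced, a known feature of the species. The part of that silencing in these levels was not tested. X supplied 7.44 ± 0.601% of counts, and 5.05 ± 0.153% of the counts that were not vitellogenin, since vit-1 to vit-5 lie on X. The difference between libraries in the X share, 8.0% in replicate 1 against 6.81% in replicate 2, moved with those genes. Of the 100 genes of highest TPM, 28 were on I, 27 on III and 4 on X.

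Variation between the libraries labelled L4440 was small for most genes. It was measured over the 9118 genes whose counts averaged 100 or more. Their median SD of log2 CPM was 0.11, against 0.0371 from counting alone at the median depth of these genes. The median ratio of highest to lowest library was 1.16. Of the 9118, 39 genes (0.428%) differed at least 2-fold and 411 (4.51%) at least 1.5-fold. Replicate 1 was the highest library for 192 of the 411, or 2.11% of all genes measured, replicate 2 for 1.31% and replicate 3 for 100 genes or 1.1%. With library totals in place of TMM factors the split was 157, 101 and 187, so which library leads is set partly by the scaling. Just past the 2-fold threshold were pgp-14 and ctl-3, at 2.002 and 2.003, and just short of it WBGene00014955 and C50F7.5, at 1.997 and 1.996. Without replicate 1, 18 genes differed 2-fold and 164 differed 1.5-fold between the other libraries, without replicate 2, 22 and 158, and without replicate 3, 26 and 236. In the libraries labelled T25B9.1, 12 of the 39 genes also differed 2-fold, against 54 of all 9118 (0.592%), and 4.08% of the 9118 differed 1.5-fold there.

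**Figure D3:**
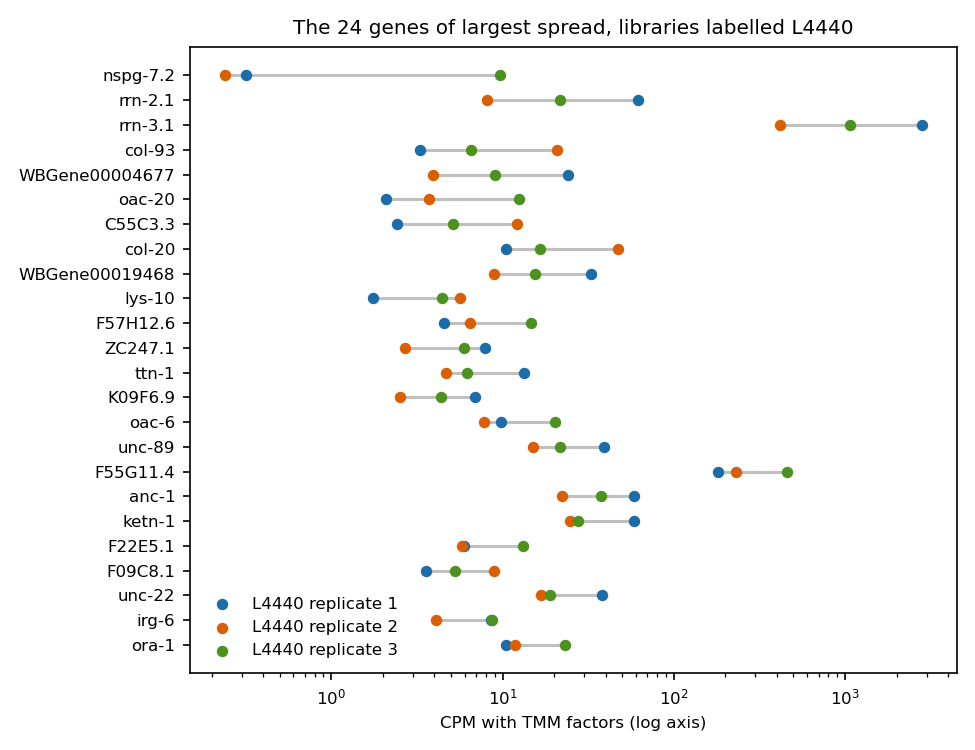
CPM with TMM factors, on a log axis, of the 24 genes with the largest SD of log2 CPM among genes with a mean of at least 100 counts; each point is a library labelled L4440 and the grey line joins the lowest to the highest. nspg-7.2 spans 40.3-fold with replicate 3 highest, rRNA and long genes are highest in replicate 1, and col-93 and col-20 are highest in replicate 2.

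A single gene stood far from the rest. nspg-7.2 (WBGene00021805, chromosome III, 3256689 to 3258406, minus strand), named for the nematode-specific peptide family g, had 11, 6 and 387 counts. The 6 counts of replicate 2 have an exact 95% Poisson interval of 2.20 to 13.1 and the 387 of replicate 3 one of 349 to 428. On CPM this was 40.3-fold. The libraries labelled T25B9.1 had 8, 136 and 747 counts, 81.2-fold on CPM and again highest in replicate 3. oac-20 and oac-6, members of a family of O-acyltransferase homologues, shared the high replicate 3 with 2.1, 3.7 and 12.4 CPM and 9.78, 7.8 and 20.3 CPM. F55G11.4 was the most abundant gene of this kind, with 182, 232 and 459.7 CPM, again highest in replicate 3.

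Ribosomal RNA came next. Nuclear rRNA supplied 0.281, 0.042 and 0.113% of counts. The library kit enriches polyadenylated RNA, and the handling of reads shared between copies is not given. The part of either in this low share was not tested. rrn-3.1, the 26S rRNA gene (chromosome I, 15064838 to 15068346, plus strand), had 2819.7, 418 and 1069 CPM, and rrn-2.1, the 5.8S gene beside it, 61.5, 8.08 and 21.5 CPM. WBGene00004677, a pseudogene at 15060299 to 15061150 in the same cluster, followed with 24.2, 3.94 and 9.06 CPM. All 3 were highest in replicate 1 and lowest in replicate 2. In the libraries labelled T25B9.1 replicate 2 was highest, with 12623 CPM of nuclear rRNA against 1224 and 1700 CPM in replicates 1 and 3. The copies of the rRNA repeat are near-identical, so the division of reads among them is uncertain. Of 20 nuclear rRNA genes, rrn-3.1 and rrn-2.1 alone had a mean of at least 10 counts. These values therefore need not stand for the repeat as a whole.

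Long genes were highest in replicate 1. Of those past 10000 bases, ZC247.1, known here by a sequence name and with 13329 bases of exon, had the largest ratio, with 7.88, 2.71 and 5.92 CPM. Muscle scaffold genes were among the next: ttn-1, a titin-like protein with 56044 bases of exon, had 13.4, 4.7 and 6.17 CPM, unc-89, obscurin, 39.4, 15.1 and 21.6 CPM, and unc-22, twitchin, 38, 16.7 and 18.8 CPM. ketn-1, kettin, had 58.3, 24.7 and 27.8 CPM. The pattern was not confined to muscle. anc-1, which anchors nuclei to actin, had 58.4, 22.3 and 37.6 CPM, and sma-1, the heavy spectrin of epithelia, 269, 168 and 183 CPM. The abundant genes dhc-1, the dynein heavy chain, with 760.3, 477 and 507 CPM, and eel-1, a ubiquitin ligase, with 764, 509.8 and 481 CPM, were highest in replicate 1 too.

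Across all genes with at least 100 counts, the ratio of replicate 1 to replicate 2 rose with exon length. Its median log2 was -0.19 for the 458 genes under 500 bases, -0.02 for the 3849 genes of 1000 to 2000 bases and 0.35 for the 286 genes of 5000 to 10000 bases. For the 48 genes of 10000 bases or more it was 0.67, and 46 of the 48 were higher in replicate 1 than in replicate 2. Of those 48, 36 (75%) differed at least 1.5-fold, all highest in replicate 1. Replicate 3 against replicate 2 showed little of this below 10000 bases, with medians between -0.03 and 0.01. The 157 genes that were highest in replicate 1 and lowest in replicate 2 had a median exon length of 4796 bases. Nuclear rRNA moved in the same order of libraries. The lengths of the fragments and the state of the RNA are not given, and the part of rRNA, length or RNA state in these differences was not tested. The vitellogenins, at 4870 to 5088 bases, had ratios of 1.38 to 1.65. Of all genes of 3000 to 5000 bases 3.96% differed 1.5-fold, and of those of 5000 to 10000 bases 18.9%.

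**Figure D4:**
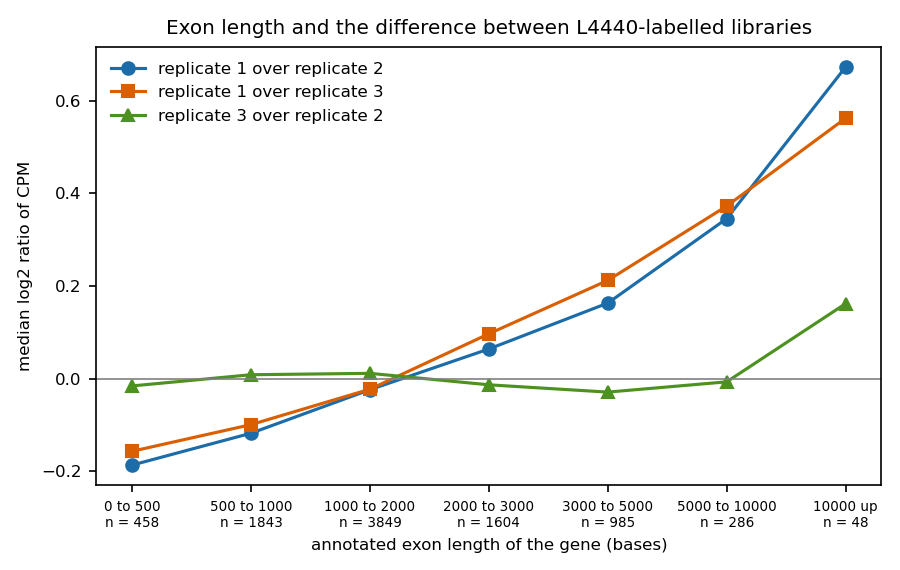
Median log2 ratio of CPM between pairs of libraries labelled L4440, by annotated exon length in bases, over genes with a mean of at least 100 counts (n under each bin). Both lines with replicate 1 on top climb from below 0 for short genes to 0.67 and 0.56 for genes of 10000 bases or more, while replicate 3 over replicate 2 stays near 0 up to the last bin.

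Sarcomere genes did not all differ by a like ratio. Of 35 with at least 100 counts, 23 had replicate 1 as the highest library, against 34.3% of all genes. Replicate 2 was highest for 9 and replicate 3 for 3. The class summed to 3021, 2854 and 2744 CPM. Of the 35, 11 differed 1.5-fold and all 11 were highest in replicate 1, against 2.11% of all genes. They included the myosin heavy chains unc-54 with 248, 129 and 139 CPM, myo-3 with 43.4, 22.9 and 26.4 CPM and the pharyngeal myo-2 with 15.2, 8.64 and 7.09 CPM. Except for tni-3, at 950 bases, the 11 had exons of 3424 bases or more. Some shorter sarcomere genes, picked after their values were seen, were even. Of these, pat-10 had 151, 168 and 165 CPM, lev-11 188, 174 and 176 CPM and mlc-2 77.6, 75.5 and 80.6 CPM. The short gene tni-3 was not even, with 8.6, 5.14 and 7.64 CPM. Among 14 basement membrane genes, 13 had replicate 1 as the highest library, against 34.3% of all genes. Of the 14, 5 differed 1.5-fold with replicate 1 highest, against the same 2.11%, namely let-2, emb-9, lam-3, unc-52 and him-4. Of these, him-4, hemicentin, had 12.1, 7.17 and 8.54 CPM. The 5 have exons of 5611 to 16719 bases. Past 1.5-fold with replicate 1 highest were 53 of all 286 genes of 5000 to 10000 bases and 36 of 48 of 10000 or more. Of the 985 genes of 3000 to 5000 bases, 34 were. The part of length in the sarcomere and basement membrane values was not tested. Without replicate 1, none of the 35 sarcomere genes and none of the 14 basement membrane genes differed 1.5-fold between the other libraries.

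Cuticle collagens were in sum highest in replicate 2, with 2119, 2485 and 2305 CPM. Of 36 with at least 100 counts, 8 differed 1.5-fold and all 8 were highest there, against 1.31% of all genes, while 21 of the 36 had replicate 2 as the highest library, as did 35.5% of all genes. col-93 had 3.31, 20.7 and 6.57 CPM and col-20 10.5, 47.3 and 16.5 CPM. The rest ranged from 1.53-fold for col-81 to 1.99-fold for col-160, and col-160 overlaps its neighbour col-159, so their reads are uncertain. Without replicate 2, of the 36 genes col-93 and col-20 still differed 1.5-fold. The 8 genes have 921 to 1119 bases of exon. Of all genes of 500 to 1000 bases 4.23% differed 1.5-fold, and of those of 1000 to 2000 bases 2.86%. The part of length in the collagen values was not tested. In the libraries labelled T25B9.1 the collagens summed to 1509.7, 1399 and 1923 CPM, highest in replicate 3, and 9 of the 36 differed 1.5-fold, against 4.08% of all genes there.

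skr genes, which encode Skp1-related subunits of ubiquitin ligases, were also highest in replicate 2. skr-13 had 5.44, 8.8 and 4.28 CPM, skr-10 13.9, 22.7 and 11.2 CPM, skr-8 14, 19.7 and 12.2 CPM and skr-7 51.3, 72.9 and 47.5 CPM. Of the 21 skr and pals genes with at least 100 counts, 19 had replicate 2 as the highest library, against 35.5% of all genes. The 4 named differed 1.5-fold with replicate 2 highest, against 1.31% of all genes, which fell to none without replicate 2. Lysozymes gave 3 of 7 past 1.5-fold, all highest in replicate 2 by TMM, against 1.31% of all genes, and none without replicate 1, the lowest. lys-10 had 1.75, 5.65 and 4.43 CPM, lys-4 22.4, 36.2 and 26.1 CPM and lys-7 936, 1437 and 1126 CPM. The summed lysozyme share was highest in replicate 3 when library totals were used, so this family's order depends on the scaling. The 4 skr genes have 519 to 585 bases of exon and the 3 lysozyme genes 693 to 902. Of all 1843 genes of 500 to 1000 bases, 459 were higher in replicate 1 than in replicate 2, and 4.23% differed 1.5-fold. The 4 skr genes, however, were lowest in replicate 3. For replicate 3 to replicate 2, the median log2 ratio of the 1843 genes was 0.008. The part of length in the skr and lysozyme values was not tested. mtl-2, a metallothionein of the intestine, had 18.6, 30.1 and 25.6 CPM.

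Antimicrobial peptide genes were in sum highest in replicate 3, with 202, 236 and 296 CPM. Of 64 such genes, 18 had at least 100 counts, and 15 of these had replicate 3 as the highest library, as did 30.2% of all genes. Of the 18, 8 differed 1.5-fold, all highest in replicate 3, against 1.1% of all genes. nlp-29, a peptide that the epidermis makes on fungal infection or wounding, had 12.9, 15.1 and 22.8 CPM, and nlp-31, of the same gene cluster, 11.9, 14.3 and 21.5 CPM. The caenacin genes cnc-2 and cnc-4 had 8.89, 14.5 and 16.2 CPM and 38.7, 44.2 and 60.4 CPM. fip-5 and fip-6, named as fungus-induced proteins, had 6.33, 6.93 and 11.7 CPM and 5.7, 7.49 and 9.93 CPM. Values of replicate 1 were the lowest for each of these 6 genes. Without replicate 1, 3 of the 18 differed 1.5-fold, nlp-29, nlp-31 and fip-5, and without replicate 3, cnc-2 did. All genes under 500 bases, the length of the 6, had a median log2 ratio of -0.16 for replicate 1 to replicate 3 and of -0.02 for replicate 3 to replicate 2, and 9.61% of them differed 1.5-fold. The part of length in the antimicrobial values was not tested. In the libraries labelled T25B9.1 the family summed to 134, 132 and 212 CPM, highest in replicate 3 as for the collagens, and 11 of the 18 genes differed 1.5-fold, against 4.08% of all genes there.

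**Figure D5:**
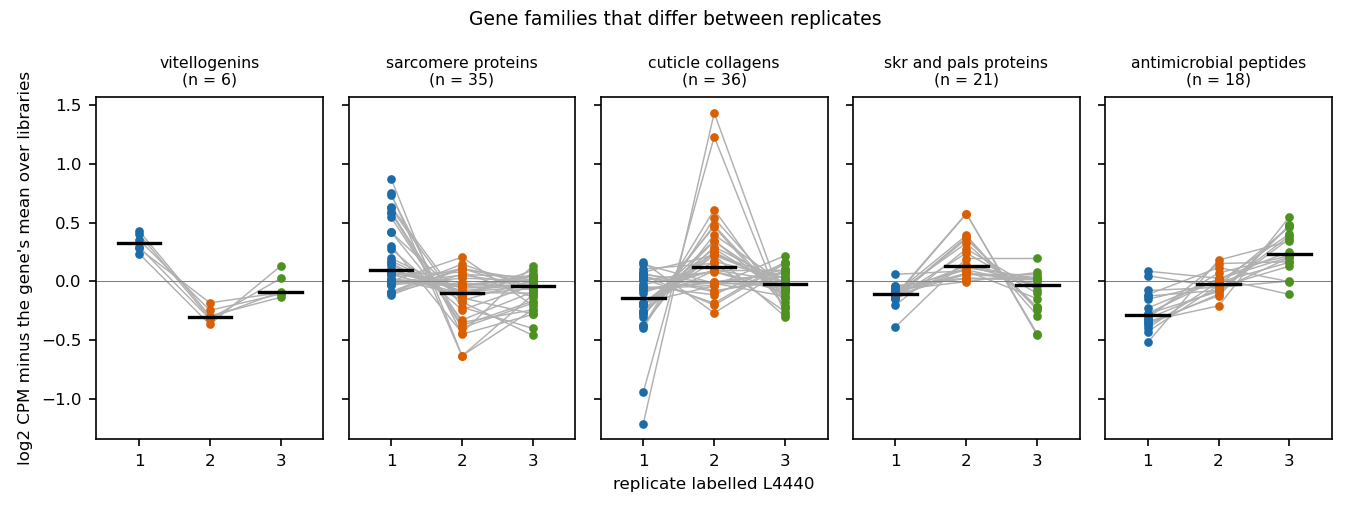
log2 CPM of each gene minus its own mean over the libraries labelled L4440, for all genes with a mean of at least 100 counts in 5 families; lines join a gene's values and black bars are medians. Vitellogenins are highest in replicate 1, cuticle collagens and skr and pals genes have their highest median in replicate 2, and antimicrobial peptides in replicate 3, while sarcomere genes divide into a flat set and a set high in replicate 1.

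At the other end, 6 genes were almost level. K07C5.3 had 98.8, 98.8 and 98.9 CPM and sec-3, a subunit of the exocyst, 39.3, 39.2 and 39.3 CPM. cic-1, a cyclin C homologue, had 36, 36 and 36.1 CPM. These are the lowest SDs among all 9118 genes, and they say nothing of other samples: in the libraries labelled T25B9.1, K07C5.3 differed 1.06-fold, sec-3 1.06-fold and cic-1 1.07-fold.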

How the data were processed

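The deposited values are raw read counts. The authors' tools, per the submitters' processing notes, were featureCounts 1.4.6-p4, STAR 2.4.1d and bcl2fastq 1.8.4, with build WBcel235. The strand setting and the handling of shared reads are not given in the sources used here, and the kit, TruSeq RNA version 2 per the labels' protocols, does not mark strand. A deposited RPKM table, reads scaled by the authors to gene length and depth, served only to recover gene lengths for an alternative. Its divisor repeats every 36 rows (SD of log2 3.17e-05 within a row class, against 0.356 over all rows), so it followed row position and not the gene, and these lengths entered only the alternatives named as such.

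Of 46748 genes, 46449 matched Ensembl release 115 of the same build, which gave exon lengths for TPM, and 43693 had a symbol. The 299 without a length have no TPM. CPM used TMM factors from edgeR 4.0.16 in R 4.3.3, computed within each label. Spread was the SD of log2 CPM, and the ratio of the highest to the lowest library, over genes with a mean of at least 100 counts. All results are descriptions of 3 libraries and carry no test. The spread computation was tested on simulated data. Depth ran from 25480225 to 38621940 counts.

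Classes followed 55 symbol patterns, some tightened after the files were opened but before any share was computed, and 15 tissue lists; the marker msd-3 was not matched. The members and lists were chosen with earlier results of these data known. Genes named are the 20 highest by TPM and by count, the 24 of largest and 6 of smallest spread, up to 3 leading members of each class and list, every vit gene and T25B9.1. Other list members, and the genes of a family past 1.5-fold, were chosen after their values were seen. Exon length, protein-coding genes alone, the split of the 1.5-fold genes by library, and family counts with a library left out were added after seeing the data. Reads of near-identical or overlapping genes are uncertain.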

Additional observations from a re-analysis of the deposited data

How the results depend on the processing

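No groups were compared, so no paired analysis was made. The library numbers in the titles place a library of each label side by side, but the labels do not say whether such neighbours are pairs. With 3 libraries, a mean over any 2 of them cannot leave 1 SD, so leaving out a library says nothing of how stable the shares and medians are. On TPM in place of counts, the 10 highest genes supplied 5.05%, ribosomal proteins 16.9%, oocyte and eggshell genes 2.37% and vitellogenins 1.31%. Of the other class shares, 50 moved by over 1 SD and 9 did not on TPM, and 4 moved and 50 did not with protein-coding nuclear genes alone as the total. Of the other list medians, 5 moved and 7 did not over members with 10 counts. The sperm median was 0.931 TPM with lengths from the deposited RPKM, which followed row position and not the gene and moved 10 of 12 other medians, and 0.939 TPM over members with 10 counts. Of the 20 genes of highest TPM, 7 stayed in a ranking by count and 17 under the RPKM lengths. The number of variable genes depended most on the count filter. With means of at least 10 and 500 counts and with no filter, 601, 13 and 6519 genes differed 2-fold, 2242, 155 and 9210 differed 1.5-fold, and 6, 10 and 1 of the 24 genes of largest spread remained. At ratios of 1.5 and 3, 411 and 11 genes were counted. Leaving out each library in turn, which leaves 2, gave 18 to 26 genes past 2-fold, 158 to 236 past 1.5-fold and 15 to 17 of the 24. Below 3000 bases of exon, 24 genes differed 2-fold. RLE factors gave 39 genes and library totals 41. Low counts limit all levels under about 10 counts, such as most sperm markers.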

Other observations

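Several gene groups outside reproduction had members of high level in the libraries labelled L4440, here as mean TPM ± SD over n = 3 libraries. Among lipid handling genes, the intracellular lipid binding protein gene lbp-9 had 1273 ± 171 TPM, lbp-2 562 ± 48.1 TPM, and lipl-5, a lysosomal lipase, 528 ± 38.6 TPM. In the folate cycle, mel-32, serine hydroxymethyltransferase, had 347 ± 28.4 TPM. Of redox genes, the peroxiredoxin gene prdx-2 had 1083 ± 66.9 TPM and sod-1, a superoxide dismutase, 349.9 ± 14.4 TPM. Ferritin ftn-2 had 417 ± 44.9 TPM. Galectin genes were led by lec-6 with 1044 ± 129 TPM.

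Detoxification and signalling families held more genes at lower levels. Of 74 cytochrome P450 genes, 62 had a mean of at least 10 counts, and the highest, cyp-31A2 with 135 ± 4.47 TPM and cyp-31A3 with 98.3 ± 1.24 TPM, are close copies that act in eggshell formation. Of 270 nuclear hormone receptor genes, 177 had a mean of at least 10 counts, and nhr-49, a regulator of fat metabolism, had 89.9 ± 6.78 TPM. Among neuropeptide and insulin-like genes, nlp-40, a peptide secreted by the intestine, had 224 ± 19.2 TPM and ins-19 had 84.8 ± 20.4 TPM. The replacement histone genes his-72, an H3.3 variant, and htz-1, the H2A.Z variant, had 682 ± 18 TPM and 1247 ± 26.6 TPM. Of genes with a mean of at least 100 counts, 4.51% of all differed 1.5-fold between libraries. In these families they were 3 of 27 neuropeptide and insulin-like genes (nlp-49, ins-19 and nlp-16), 3 of 36 cytochrome P450 genes (cyp-35B1, cyp-33C3 and cyp-34A2), mtl-2 of 4 ferritin and metallothionein genes, ctl-3 of 22 redox genes and hil-2 of 17 histone genes. None did of 85 nuclear hormone receptor, 9 lbp, 4 lipl, 11 galectin and 12 methionine and folate cycle genes.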
